A study of Homo sapiens with 18 samples.

Results

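The collagen genes were taken as all genes whose symbol has the form COL, a number, A and a number, with a deposited mean normalized count of at least 10. Of 42 such genes in the tables, 29 met this minimum and 13 did not. They were 9 fibrillar collagens, 6 network collagens and 14 other collagens. The values come from RNA-seq of polyadenylated RNA from U2OS, a human osteosarcoma cell line. The cells carried a control siRNA (siControl) or an siRNA named for ANKRA2 or RFXANK (siANKRA2, siRFXANK). They then received Nutlin-3a, an MDM2 inhibitor that activates p53, at 10 µM for 24 h, or the solvent DMSO. Each of the 6 groups had 3 samples, 18 in all, and nothing says that these came from separate cultures, so p-values measure the spread between these samples, which may be technical. The siRFXANK samples were registered apart from the others with no matching siControl group, so a batch and siRFXANK cannot be told apart in siRFXANK over siControl. The tables report comparisons only, so values by sample cannot be shown and library depth is unknown.

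Collagens are secreted or membrane-spanning proteins whose chains wind into triple helices. Fibrillar collagens assemble into the banded fibrils that give bone, skin and tendon their strength. Network collagens such as type IV form the sheets of basement membranes. The other collagens decorate fibrils, form beaded filaments or anchoring fibrils, or span the cell membrane. Many of them are trimers of chains from different genes, so the chains of a trimer are described together. Type I collagen is the main protein of bone, and osteoblasts are its best known source.

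In siControl cells the known p53 target CDKN1A, which encodes a cell cycle inhibitor, was 9.62-fold higher in Nutlin-3a than in DMSO, and MDM2, which encodes the p53 antagonist that Nutlin-3a binds, was 10.4-fold higher. siANKRA2 over siControl was read in the direction that makes ANKRA2 lower, at 0.285-fold in DMSO (log2 -1.81 ± 0.18 SE) and 0.167-fold in Nutlin-3a. siRFXANK over siControl was read the same way, with RFXANK at 0.129-fold in DMSO (log2 -2.96 ± 0.10 SE) and 0.112-fold in Nutlin-3a, so this direction is an assumption. CDKN1A was itself 4.12-fold higher in siANKRA2 DMSO than in siControl DMSO. The labels call the siRFXANK samples epithelial cells of bone. Of 9 epithelial markers, 6 had a mean of at least 10, led by KRT8 at 21460 and KRT18 at 12960. EPCAM was at 161 and CDH1 at 32.9, while KRT19, KRT5 and ESRP1 were below 10. Of 6 mesenchymal markers 5 reached 10, led by VIM at 55030, and TWIST1 had no value. Of 7 osteoblast markers 4 reached 10, with SPARC at 29460, RUNX2 at 454, SPP1 at 204 and ALPL at 148. BGLAP was at 2.08, and SP7 and IBSP had no value. None of 3 leukocyte markers reached 10, and 1 of 3 endothelial markers did, VWF at 31.2.

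By deposited mean per kilobase of exon sequence, COL1A1, the α1 chain of type I collagen, was the highest of the collagen genes, at 6522 normalized counts per kb. It made up 43.0% of the summed level per kb of the 29 genes. After it came COL6A1 at 1875, COL4A2 at 1743, COL6A2 at 1639, COL4A1 at 974, COL12A1 at 626, COL5A1 at 355 and COL6A3 at 254 normalized counts per kb. These 8 genes held 92.2% of the summed level, and the same 8 genes were highest per kb of the longest transcript. The deposited mean runs over all samples of the fit, so it has no replicate error. Neighbours in this order were not compared by a test. Whether the fit held samples outside the groups described here was not tested. The deposited mean over the mean recovered for these groups ran from 0.578 to 1.59 among the 29 genes. That recovery was off on simulated counts with unequal library scales. Levels, shares and ratios from the deposited mean, and the marker means above, may thus not be those of these groups. Gene length moved the order within the 8, since COL4A2 stood at 5178 and COL6A1 at 2363 normalized counts per kb of longest transcript.

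The chains of single trimers stood at unlike levels. COL1A2, which encodes the α2 chain of type I collagen, had 2.97 normalized counts per kb, and COL1A1 was 2195-fold above it per kb. COL1A2 shares 1.26% of its 31-base stretches with transcripts of other genes. COL4A2 was 1.79-fold above COL4A1, and COL6A1 was 7.39-fold above COL6A3, the longest of these chains of type VI collagen. The ratio of COL6A1 to COL6A2 was 1.14 per kb of exon union and 0.927 per kb of longest transcript, so their order turns with the length used. COL5A1 was 4.72-fold above COL5A2, its partner in type V collagen. COL9A3, with a mean of 12.6, was the least abundant gene inside the minimum, and COL2A1, the cartilage fibril collagen, was just outside it at 8.58. The plot of level by gene shows the span from COL1A1 to COL4A6.

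**Figure D1:**
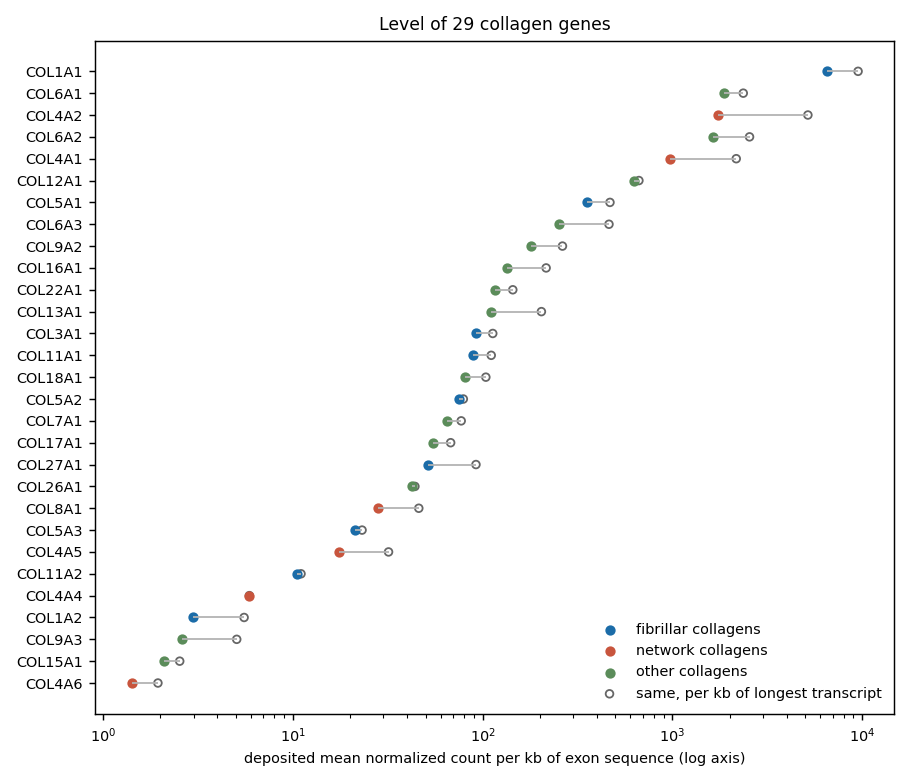
Deposited mean normalized count per kb of exon union (filled points, coloured by class) and of the longest transcript (open points) for the 29 collagen genes, on a log axis. COL1A1 stands highest at 6522 per kb and COL4A6 lowest at 1.41 per kb of exon union.

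Across the 6 groups, levels relative to siControl DMSO follow from the deposited fold changes, and their errors stand with each comparison. The group with the highest level was siControl Nutlin-3a for 15 genes, siANKRA2 Nutlin-3a for 6, siRFXANK Nutlin-3a for 5, siControl DMSO for 2 and siANKRA2 DMSO for 1. siRFXANK DMSO, where a batch cannot be told apart from siRFXANK, was the lowest group for 10 genes. siControl DMSO and siANKRA2 DMSO were lowest for 6 each, siANKRA2 Nutlin-3a for 3, and siControl Nutlin-3a and siRFXANK Nutlin-3a for 2 each. These orders were neither tested nor counted over all genes. They include near ties, such as COL4A6 at 191% in siControl Nutlin-3a and 186% in siANKRA2 Nutlin-3a. The ratio of the highest to the lowest group reached 10.5-fold for COL8A1, 8.72-fold for COL26A1, 8.16-fold for COL17A1, 7.30-fold for COL5A3 and 7.05-fold for COL4A5.

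COL8A1, a short-chain network collagen of vessel walls and the cornea, was at 53.8% of its siControl DMSO level in siControl Nutlin-3a, 563% in siANKRA2 DMSO, 438% in siANKRA2 Nutlin-3a, 376% in siRFXANK DMSO and 269.7% in siRFXANK Nutlin-3a. It was thus above both siControl groups in all 4 knockdown groups. COL17A1, a membrane-spanning collagen of hemidesmosomes, was at 428% in siControl Nutlin-3a, 247% in siANKRA2 DMSO, 591% in siANKRA2 Nutlin-3a, 72.4% in siRFXANK DMSO and 409.6% in siRFXANK Nutlin-3a. Each of its Nutlin-3a groups was above its own DMSO group.

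COL26A1, a collagen described in testis and ovary, had its highest level in siControl DMSO. It was at 73.2% in siControl Nutlin-3a, 38.3% in siANKRA2 DMSO, 32.1% in siANKRA2 Nutlin-3a, 22.8% in siRFXANK DMSO and 11.5% in siRFXANK Nutlin-3a. COL5A3, a further chain of type V collagen, was at 159.8%, 54.6%, 62.8%, 21.9% and 52.4% in the same groups. COL4A5, a chain of the type IV collagen of kidney basement membranes, was at 252%, 35.7%, 58.4%, 67.3% and 131% in them. For COL5A3 and COL4A5 the highest group was siControl Nutlin-3a. COL13A1, a membrane-spanning collagen of the neuromuscular junction, was highest in siRFXANK Nutlin-3a at 539%, against 202% in siControl Nutlin-3a, 175.9% in siANKRA2 DMSO, 200.5% in siANKRA2 Nutlin-3a and 217% in siRFXANK DMSO.

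**Figure D2:**
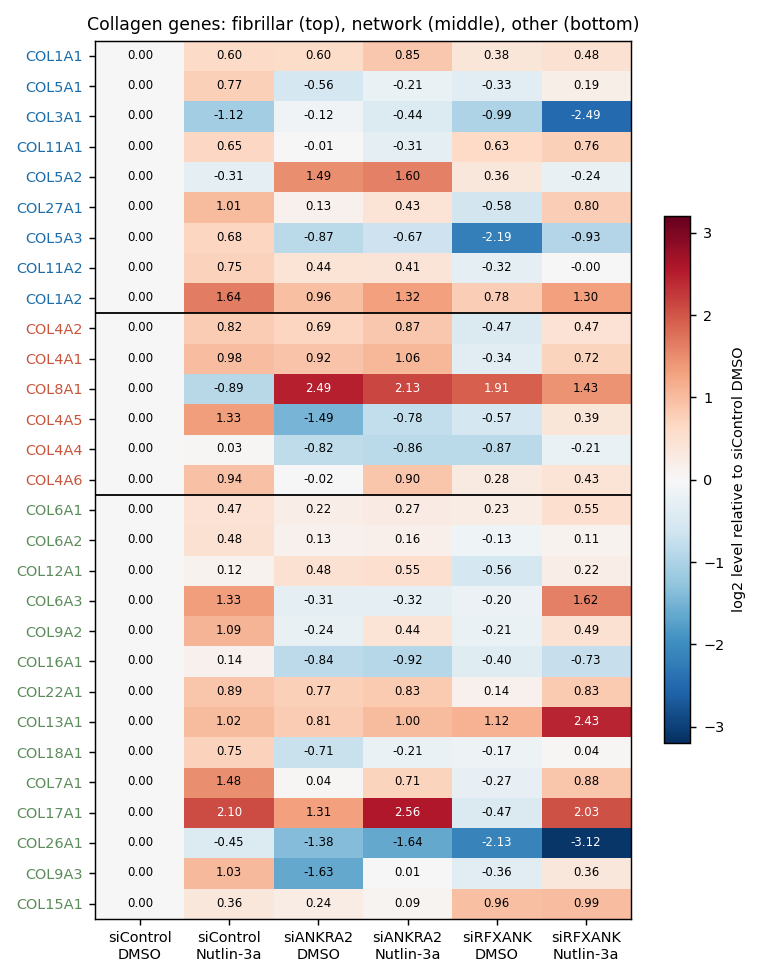
Level of each collagen gene in the 6 groups as log2 relative to siControl DMSO, from the deposited fold changes, with classes separated by lines and gene names coloured by class. COL17A1 reads 2.56 in siANKRA2 Nutlin-3a and COL26A1 reads -3.12 in siRFXANK Nutlin-3a, the ends of the scale of values.

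Upstream sequence is shown for 5 of the genes with wide ranges, chosen after their values were seen, as is the choice of motifs. No window of 300 bases was found for COL8A1, which had the widest range. COL9A3 and COL3A1, with wider ranges than COL13A1, also had none. The stretches are from RefSeq on GRCh38.p14 and lie within 250 bases before the RefSeq start, with annotated exon bases left out. Capitals mark CCAAT boxes (CCAAT or ATTGG), the hexamer GTTGCC of the X-box that RFX factors bind, GC boxes (GGGCGG) and TATAAA, all searched on both strands.
COL17A1 (chr10:104085958-104086130, minus strand): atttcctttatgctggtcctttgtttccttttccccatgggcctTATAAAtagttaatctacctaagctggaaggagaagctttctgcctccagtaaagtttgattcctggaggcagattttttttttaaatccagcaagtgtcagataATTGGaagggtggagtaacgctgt
COL13A1 (chr10:69801656-69801866, plus strand): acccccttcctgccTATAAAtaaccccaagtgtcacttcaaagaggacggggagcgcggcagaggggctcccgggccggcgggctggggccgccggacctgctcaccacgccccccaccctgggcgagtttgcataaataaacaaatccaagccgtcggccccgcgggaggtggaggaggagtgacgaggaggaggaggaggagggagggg
COL26A1 (chr7:101362625-101362819, plus strand): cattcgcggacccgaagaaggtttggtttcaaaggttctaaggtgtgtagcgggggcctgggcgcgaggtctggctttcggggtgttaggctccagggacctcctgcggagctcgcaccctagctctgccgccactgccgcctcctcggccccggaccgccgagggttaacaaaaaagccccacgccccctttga
COL4A5 (chrX:108439588-108439837, plus strand): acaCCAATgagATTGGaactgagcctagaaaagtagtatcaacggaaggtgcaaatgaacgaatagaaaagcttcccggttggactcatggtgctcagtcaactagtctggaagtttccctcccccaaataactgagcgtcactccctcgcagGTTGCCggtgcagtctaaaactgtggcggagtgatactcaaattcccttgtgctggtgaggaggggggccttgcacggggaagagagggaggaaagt
COL5A3 (chr19:10010505-10010754, minus strand): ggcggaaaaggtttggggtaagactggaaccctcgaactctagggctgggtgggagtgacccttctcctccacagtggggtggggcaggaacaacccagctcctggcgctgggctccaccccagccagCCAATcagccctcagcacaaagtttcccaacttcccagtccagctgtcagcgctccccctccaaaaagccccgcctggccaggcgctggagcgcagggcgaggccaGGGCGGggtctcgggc
Motifs were counted in whole windows of 300 bases, from 250 before the start to 50 after it, exon bases included, which were found for 21 of the 29 genes. GTTGCC was in the windows of 3 of these 21, COL4A5, COL9A2 and COL11A2, against 14.6% of 27305 genes. The CCAAT box was in 8 of 21 against 39.7%, GGGCGG in 15 of 21 against 48.3%, and TATAAA in 5 of 21 against 14%. A match is a description of these letters only.

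COL4A1 and COL4A2, the chains of the common type IV collagen of basement membranes, lie head to head on chromosome 13, with 126 bases between their RefSeq starts. A stretch between the starts is shown because both genes share it, with its CCAAT box in capitals.
Between COL4A1 and COL4A2 (chr13:110307167-110307196, plus strand): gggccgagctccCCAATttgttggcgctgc
COL4A1 was at 197% of siControl DMSO in siControl Nutlin-3a, 188.9% in siANKRA2 DMSO, 209% in siANKRA2 Nutlin-3a, 78.7% in siRFXANK DMSO and 165% in siRFXANK Nutlin-3a. COL4A2 was at 177%, 162%, 182%, 72.3% and 138% in the same order. Both genes were lowest in siRFXANK DMSO and highest in siANKRA2 Nutlin-3a, which did not pass the test against siControl Nutlin-3a. COL4A5 and COL4A6 also lie head to head on chromosome X. The gap from the COL4A5 RefSeq start to the nearer of the COL4A6 RefSeq starts was 379 bases. COL4A6, with a mean of 13.1, was called in none of the 9 comparisons by the deposited DESeq2 test or the test of differences, and had an unadjusted p under 0.05 in 2. Its Nutlin-3a over DMSO value in siControl cells, log2 0.94 ± 0.41, passed when p was adjusted over the genes at or above the minimum mean. COL4A4 lies head to head with COL4A3, which had a mean of 1.02 and fell under the minimum.

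The comparison of Nutlin-3a with DMSO in siControl cells asks how collagen genes change when p53 is activated. Of 29 collagen genes, 20 rose, beside 28.8% of the 18456 genes in the tables that reached the same minimum, and 4 fell, beside 28.9%, at an adjusted p under 0.05 in the deposited DESeq2 Wald test. Their median log2 fold change was 0.75, against 0.01 over all 18456 genes. Of the fibrillar collagens 7 of 9 rose and 2 fell, of the network collagens 3 of 6 rose and 1 fell, and of the other collagens 10 of 14 rose and 1 fell. The medians of the classes were 0.68, 0.88 and 0.82 on the log2 scale, and the difference between classes was not tested.

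Among fibrillar collagens COL1A1 rose 1.52-fold (log2 0.60 ± 0.04 SE, adjusted p = 3.08e-56), and COL1A2 rose 3.12-fold (log2 1.64 ± 0.32 SE, adjusted p = 1.17e-06). COL27A1, a fibrillar collagen of cartilage, rose by log2 1.01 ± 0.09, and COL5A1 by 0.77 ± 0.06. COL3A1, the fibrillar collagen of vessels and skin, fell by 1.12 on the log2 scale (SE 0.21, adjusted p = 2.35e-07). COL5A2 fell by 0.31 (SE 0.08), so the type V partners COL5A1 and COL5A2 moved in opposite directions. Among network collagens COL4A5 rose by log2 1.33 ± 0.11, COL4A1 by 0.98 ± 0.05 and COL4A2 by 0.82 ± 0.05, while COL8A1 fell by 0.89 (SE 0.15).

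Of the other collagens, COL17A1 rose most, 4.28-fold (log2 2.10 ± 0.13 SE, adjusted p = 3.4e-55). COL7A1, the collagen of anchoring fibrils in skin, rose by log2 1.48 ± 0.12 (adjusted p = 1.79e-33). Of the type VI chains, COL6A3 rose by log2 1.33 ± 0.12, against 0.47 ± 0.06 for COL6A1 and 0.48 ± 0.04 for COL6A2. The fibril-associated collagens COL9A2 and COL22A1 rose by 1.09 ± 0.08 and 0.89 ± 0.06, and COL9A3 by 1.03 ± 0.44, with an adjusted p of 0.0423 at its low mean of 12.6. COL26A1 was the only other collagen called lower, at log2 -0.45 ± 0.14. COL18A1, whose product holds endostatin, rose by 0.75 ± 0.06. It shares 16.4% of its exon bases with SLC19A1 on the opposite strand (mean 1541), the use of strand in counting is not given in the sources used here, and the part of SLC19A1 reads in COL18A1 values was not tested.

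In siANKRA2 cells, Nutlin-3a over DMSO gave 11 collagen genes higher (18.4% of all genes) and 2 lower (20.6%) of 29, with a median log2 fold change of 0.14. Higher genes were 3 of 9 fibrillar, 3 of 6 network and 5 of 14 other collagens. COL9A3 (log2 1.64 ± 0.60 SE, adjusted p = 0.0208), COL17A1 (1.26 ± 0.11, adjusted p = 4.92e-29) and COL4A5 (0.71 ± 0.16) rose most among called genes. The falls were COL8A1 (-0.36 ± 0.09) and COL11A1, a fibrillar collagen of cartilage (-0.30 ± 0.08). COL6A3 had a log2 fold change of -0.01 ± 0.12, COL6A1 of 0.04 ± 0.06 and COL6A2 of 0.03 ± 0.04, none of which passed the test.

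The difference of these responses, siANKRA2 minus siControl, was tested directly. It was lower for 19 of 29 collagen genes (15.2% of all genes) and higher for 3 (14%), with a median of -0.46 against -0.01 over all genes. The lower genes were 7 of 9 fibrillar, 3 of 6 network and 9 of 14 other collagens. COL6A3 (-1.34 ± 0.17 SE, adjusted p = 8.79e-14), COL1A2 (-1.28 ± 0.44, adjusted p = 0.0176) and COL11A1 (-0.95 ± 0.11, adjusted p = 7.5e-16) had the lowest differences on the log2 scale. COL4A1 and COL4A2 differed by -0.83 ± 0.07 and -0.65 ± 0.07, COL17A1 by -0.84 ± 0.17 and COL1A1 by -0.35 ± 0.05. The 3 higher differences were COL3A1 (0.80 ± 0.29), COL8A1 (0.53 ± 0.17) and COL5A2 (0.41 ± 0.11), genes that had fallen in siControl cells. COL26A1, which had also fallen there, had 0.19 ± 0.22 and was not called. The siControl response is subtracted in the difference, so a fall there pushes it up and a rise pushes it down by construction. In the same test CDKN1A differed by -1.85 ± 0.06 and MDM2 by -1.19 ± 0.07, and their part in the collagen differences was not tested.

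In siRFXANK cells the Nutlin-3a response was derived from the siRFXANK over siControl tables and the siControl response, in which the siControl libraries cancel. It was higher for 18 of 29 collagen genes (29.2% of all genes) and lower for 5 (29.6%), with a median log2 fold change of 0.52. COL17A1 (2.50 ± 0.14 SE, adjusted p = 5.85e-65), COL6A3 (1.82 ± 0.12) and COL27A1 (1.38 ± 0.10) rose most. COL3A1 (-1.50 ± 0.21, adjusted p = 7.09e-12), COL26A1 (-0.99 ± 0.22) and COL5A2 (-0.60 ± 0.08) fell most, followed by COL8A1 (-0.48 ± 0.09) and the fibril-associated COL16A1 (-0.33 ± 0.07). COL1A1 rose by log2 0.10 ± 0.04 (adjusted p = 0.0159). COL1A2 had a value of 0.52 ± 0.30 and did not pass the test.

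The response difference siRFXANK minus siControl was lower for 8 of 29 collagen genes (13% of all genes) and higher for 4 (15.6%), with a median of -0.30. None of the 6 network collagens was called, in the normal test of deposited fold changes adjusted by Benjamini-Hochberg, and 3 of the 6 had an unadjusted p under 0.05. Of the fibrillar collagens 4 were lower and 2 higher, and of the other collagens 4 were lower and 2 higher. COL18A1 (-0.53 ± 0.09 SE), COL11A1 (-0.52 ± 0.11) and COL1A1 (-0.50 ± 0.05, adjusted p = 1.38e-18) had the lowest differences among called genes, beside COL16A1 (-0.48 ± 0.09). The higher ones were COL12A1, a fibril-associated collagen of tendon and muscle (0.67 ± 0.20, adjusted p = 0.00553), COL5A3 (0.58 ± 0.19), COL6A3 (0.49 ± 0.17) and COL27A1 (0.37 ± 0.14). COL1A2 had a difference of -1.12 ± 0.44 with an adjusted p of 0.0501, which missed the threshold. It passed when p was adjusted over the genes at or above the minimum mean and when fold changes were recentred. COL4A1 and COL4A2 had values of 0.09 ± 0.07 and 0.11 ± 0.07.

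**Figure D3:**
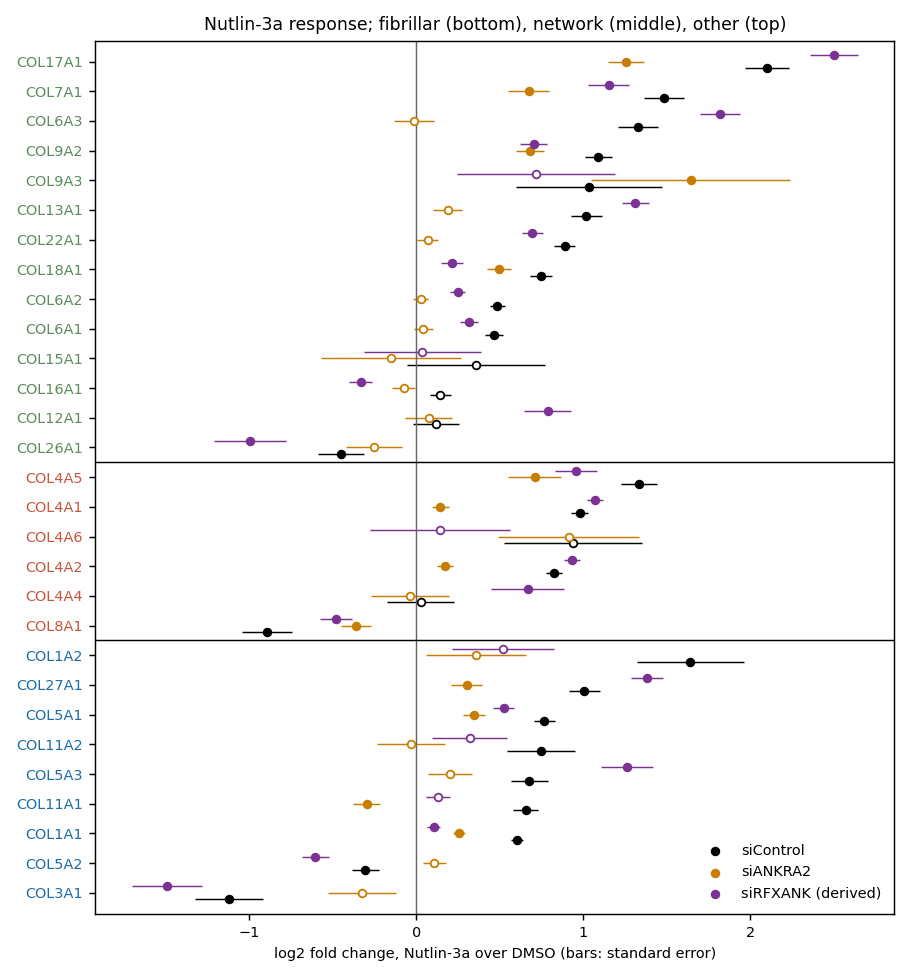
Log2 fold change of Nutlin-3a over DMSO for each collagen gene in siControl, siANKRA2 and siRFXANK cells, with bars for the standard error, filled points for adjusted p under 0.05 and open points for the rest. COL6A3 lies at 1.33 in siControl, -0.01 in siANKRA2 and 1.82 in siRFXANK cells.

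The comparison siANKRA2 over siControl shares its siControl libraries with the Nutlin-3a comparison above. In DMSO, 12 of 29 collagen genes were higher (32.7% of all genes) and 10 were lower (34%), with a median log2 fold change of 0.13. In Nutlin-3a, 6 were higher (33.4%) and 15 were lower (35%), with a median of -0.33. In Nutlin-3a the lower genes were 4 of 9 fibrillar, 2 of 6 network and 9 of 14 other collagens.

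COL8A1 was 5.63-fold higher in siANKRA2 than in siControl cells in DMSO (log2 2.49 ± 0.11 SE, adjusted p = 2.33e-111) and rose by log2 3.03 ± 0.13 in Nutlin-3a. COL5A2 rose by 1.49 ± 0.08 in DMSO and 1.91 ± 0.08 in Nutlin-3a, while its partner COL5A1 fell by 0.56 (SE 0.06) and 0.98 (SE 0.06). COL17A1 was higher by 1.31 ± 0.14 in DMSO and 0.47 ± 0.10 in Nutlin-3a. COL4A1 and COL4A2 were higher in DMSO, by 0.92 ± 0.05 and 0.69 ± 0.05, and had values of 0.08 ± 0.05 and 0.04 ± 0.05 in Nutlin-3a. COL1A1 was higher in both, by 0.60 ± 0.04 and 0.25 ± 0.04. COL3A1 was higher in Nutlin-3a (0.68 ± 0.21) and had a value of -0.12 ± 0.20 in DMSO.

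Among the genes that fell, COL4A5 was lower by -1.49 ± 0.15 in DMSO and -2.11 ± 0.12 in Nutlin-3a on the log2 scale (adjusted p = 1.63e-64 in Nutlin-3a). COL9A3 was lower by -1.63 ± 0.59 in DMSO (adjusted p = 0.014), COL26A1 by -1.38 ± 0.15 in DMSO, and COL5A3 by -1.35 ± 0.12 in Nutlin-3a. For COL6A3 the log2 fold change was -0.31 ± 0.12 in DMSO and -1.65 ± 0.12 in Nutlin-3a. COL6A1 and COL6A2 were higher in DMSO (0.22 ± 0.06 and 0.13 ± 0.04) and lower in Nutlin-3a (-0.20 ± 0.06 and -0.33 ± 0.04).

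**Figure D4:**
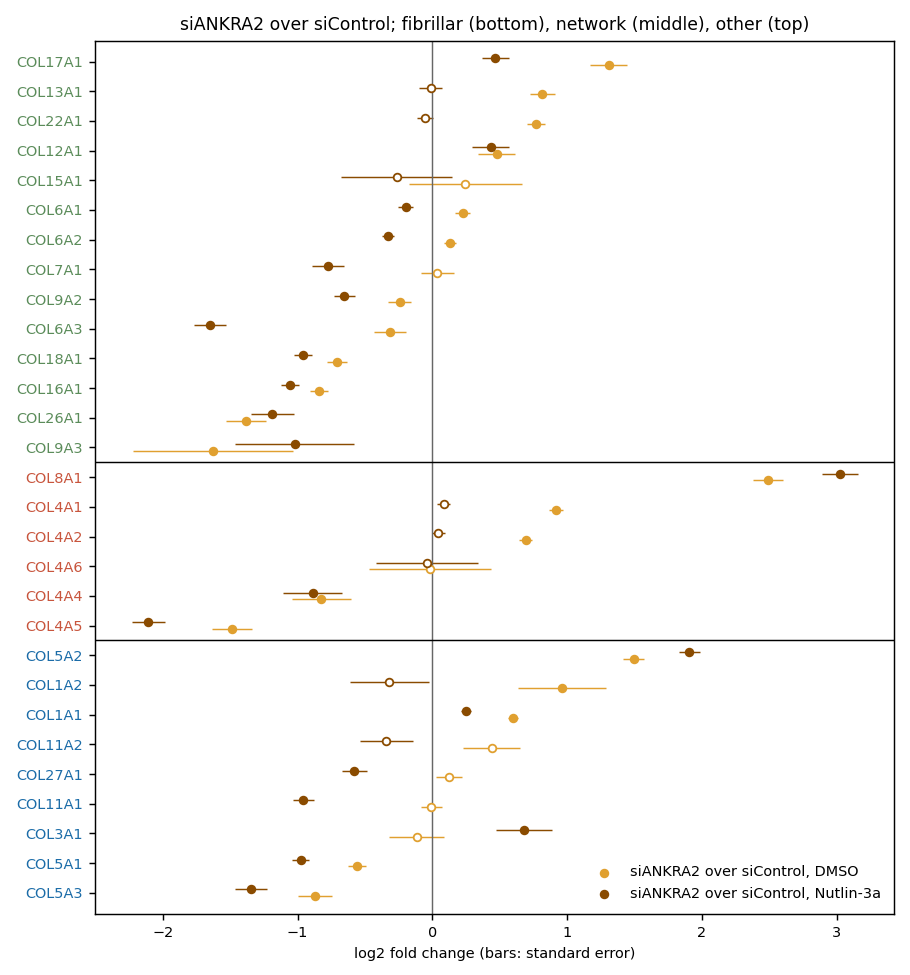
Log2 fold change of siANKRA2 over siControl for each collagen gene in DMSO and in Nutlin-3a, with bars for the standard error, filled points for adjusted p under 0.05 and open points for the rest. COL8A1 lies farthest to the right, at 2.49 and 3.03, and COL4A5 reaches -2.11 in Nutlin-3a.

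In siRFXANK over siControl, where a batch cannot be told apart from siRFXANK, 8 of 29 collagen genes were higher (28.2% of all genes) and 15 lower (29.1%) in DMSO, with a median log2 fold change of -0.27. In Nutlin-3a, 3 were higher (25.9%) and 14 lower (25.9%), with a median of -0.34. Of the network collagens, 4 of 6 were lower in DMSO and 3 of 6 in Nutlin-3a, and of the fibrillar collagens 4 of 9 and 5 of 9.

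COL8A1 was higher by log2 1.91 ± 0.11 in DMSO (adjusted p = 5.53e-63) and 2.33 ± 0.14 in Nutlin-3a, and COL13A1 by 1.12 ± 0.09 and 1.41 ± 0.08. COL15A1, a basement membrane collagen with a mean of 13.9, was higher in DMSO (0.96 ± 0.39, adjusted p = 0.0356). COL6A3 was higher in Nutlin-3a (0.29 ± 0.12, adjusted p = 0.0372), a call that was lost when fold changes were recentred on the median. The lowest values in DMSO were those of COL5A3 (-2.19 ± 0.15, adjusted p = 3.02e-47), COL26A1 (-2.13 ± 0.16) and COL3A1 (-0.99 ± 0.21). In Nutlin-3a they were those of COL26A1 (-2.67 ± 0.20, adjusted p = 4.37e-40), COL5A3 (-1.61 ± 0.12) and COL3A1 (-1.37 ± 0.21). COL4A1 was lower by -0.34 ± 0.05 in DMSO and -0.25 ± 0.05 in Nutlin-3a, and COL4A2 by -0.47 ± 0.05 and -0.36 ± 0.05. COL1A1 was higher in DMSO (0.38 ± 0.04) and lower in Nutlin-3a (-0.12 ± 0.04), and COL1A2 was higher in DMSO (0.78 ± 0.33, adjusted p = 0.0426).

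**Figure D5:**
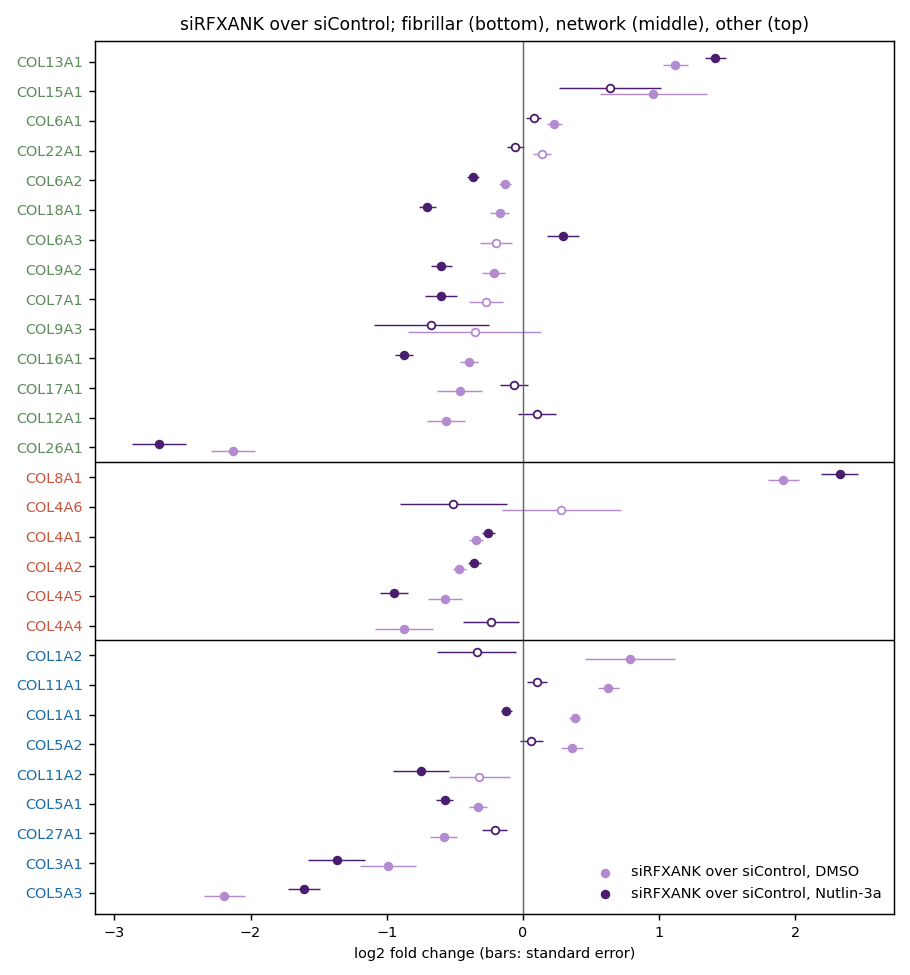
Log2 fold change of siRFXANK over siControl for each collagen gene in DMSO and in Nutlin-3a, with bars for the standard error, filled points for adjusted p under 0.05 and open points for the rest. COL26A1 and COL5A3 lie at -2.13 and -2.19 in DMSO, and COL8A1 at 1.91.

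Genes that modify, fold and export collagen were described from a list of 25 symbols. Of these, 24 had values, each with a mean of at least 10, and CTAGE5 had none. In siControl cells, Nutlin-3a raised 11 of the 24 and lowered 7, with a median log2 fold change of 0.08, beside 28.8% higher and 28.9% lower over all genes. P3H2, a prolyl 3-hydroxylase, rose by log2 1.36 ± 0.07 and PLOD2, a lysyl hydroxylase, by 0.59 ± 0.04, while COLGALT2, a collagen galactosyltransferase, fell by 0.94 (SE 0.25). In the response difference siANKRA2 minus siControl, 6 were higher and 3 lower of 24, beside 14% and 15.2% of all genes. P3H2 was at -0.85 ± 0.09, and COLGALT2 had the largest called rise, at 0.94 ± 0.35. In siRFXANK minus siControl, 4 were higher and 8 lower of 24, beside 15.6% and 13%. P3H2 was at -0.94 ± 0.09 and the collagen chaperone SERPINH1 at -0.46 ± 0.06, while SEC24D had the largest called rise, at 0.51 ± 0.09.

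Of 13 genes for propeptide removal and cross-linking, 12 were tested. Nutlin-3a in siControl cells raised 3 of them and lowered 6, beside 28.8% and 28.9% of all genes, with a median log2 fold change of -0.12. The cross-linking enzyme LOX, lysyl oxidase, fell by 1.05 (SE 0.08), while its relative LOXL4 rose by 1.36 ± 0.05, and BMP1, which cuts the carboxyl propeptide, by 0.97 ± 0.05. LOX was higher in siANKRA2 than in siControl cells by 2.20 ± 0.07 in DMSO and 3.47 ± 0.08 in Nutlin-3a, where 5 genes of the list were higher and 5 lower, beside 33.4% and 35% of all genes. Of 10 collagen receptors and uptake genes, 9 were tested, and Nutlin-3a in siControl cells raised 3 and lowered 2, beside 28.8% and 28.9%. ITGA2, a collagen-binding integrin chain, rose by 1.99 ± 0.11 in siControl, 0.64 ± 0.11 in siANKRA2 and 2.31 ± 0.11 in siRFXANK cells. Its level was higher in siANKRA2 than in siControl cells, by 1.63 ± 0.11 in DMSO and 0.28 ± 0.11 in Nutlin-3a. MRC2, an uptake receptor for collagen, was lower in siANKRA2 than in siControl cells, by -1.24 ± 0.06 in DMSO and -1.70 ± 0.06 in Nutlin-3a.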

How the data were processed

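U2OS RNA-seq was analysed from 6 comparison tables made by the authors with DESeq2 1.20.0 on hg38, with featureCounts 1.6.5 among the tools of the submitters' processing notes. The aligner and the strand setting are not given in the sources used here. For every gene the authors deposited a mean normalized count over their samples, treated here as a signal value. They further deposited a log2 fold change, its standard error, and a Wald p-value, raw and adjusted by Benjamini-Hochberg. The use of these authors' comparison columns is a departure made because the tables hold no values per library. No count model could be fitted and intervals of depth could not be given. A gene's deposited mean did not vary between tables, and the siControl and siANKRA2 comparisons closed to within 1.38e-14.

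The difference of responses was the difference of deposited log2 fold changes over its standard error (squared errors added), with a two-sided normal p adjusted over all genes. The siRFXANK response was derived with the variance of siControl subtracted. The threshold was an adjusted p under 0.05. Members and lists were chosen with earlier results of these data known. Named were, per comparison, the 3 largest called rises and falls, the chains of types I, IV, V and VI, head-to-head genes, the 8 highest genes and the genes at the minimum of 10. From the lists, genes among the 2 largest called rises and falls were named for some comparisons. That selection, and any collagen value outside this rule, was chosen after the values were seen.

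Lengths and positions came from GENCODE 29, and promoters from RefSeq. Levels were to be group means recovered from fold changes and standard errors. On simulated counts for 18456 genes, this recovery was tried under 3 settings. With library scales that average 1 in each group, the median ratio to the group mean of the same drawn counts was 0.999 over 1000 genes. With unequal scales only 747 of 1000 could be solved, with a median of 0.657. With 1 dispersion for all genes, and scales that also did not average 1 in each group, 987 were solved, with a median of 0.977. Since library scales are unknown here, recovered means are not printed, and levels are deposited means or percentages of siControl DMSO. Of 200 genes changed 2-fold, the siANKRA2 difference recovered 149, 154 and 104 under these settings, with 3, 8 and 11 false calls, the siRFXANK difference 148, 148 and 103, with 11, 7 and 12, and the siRFXANK response 172, 169 and 170, with 11, 8 and 10. These simulations built standard errors from the true dispersion, which the deposited errors could not, and changed only 200 of 18456 genes. Their false-call counts therefore do not give the error rate of the tests on these data. The settings were revised after the first runs missed the set limits, and the limit on false calls was loosened. Tools were Python 3.11.15, numpy 2.4.6, pandas 2.3.3, scipy 1.17.1 and matplotlib 3.10.9.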

Additional observations from a re-analysis of the deposited data

Results flagged for a closer look

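Compared with siControl cells, 22 collagen genes had another Nutlin-3a response in siANKRA2 cells and 12 in siRFXANK cells, in the test of the difference itself. Over all genes the shares higher and lower were 14% and 15.2% for siANKRA2, and 15.6% and 13% for siRFXANK. In siANKRA2 minus siControl, the log2 differences below 0 were -1.34 for COL6A3, -1.28 for COL1A2, -0.95 for COL11A1, -0.84 for COL17A1, -0.83 for COL4A1, -0.83 for COL13A1, -0.82 for COL22A1, -0.81 for COL7A1, -0.78 for COL11A2, -0.71 for COL27A1, -0.65 for COL4A2, -0.62 for COL4A5, -0.48 for COL5A3, -0.46 for COL6A2, -0.42 for COL5A1, -0.42 for COL6A1, -0.41 for COL9A2, -0.35 for COL1A1 and -0.25 for COL18A1. Those above 0 were 0.41 for COL5A2, 0.53 for COL8A1 and 0.80 for COL3A1. In siRFXANK minus siControl, the log2 differences below 0 were -0.53 for COL18A1, -0.52 for COL11A1, -0.50 for COL1A1, -0.48 for COL16A1, -0.39 for COL9A2, -0.30 for COL5A2, -0.24 for COL5A1 and -0.23 for COL6A2. Those above 0 were 0.37 for COL27A1, 0.49 for COL6A3, 0.58 for COL5A3 and 0.67 for COL12A1. Both tests use the same siControl libraries. The siRFXANK test compares changes within samples registered apart, and how far a batch alters the response was not tested.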

How the results depend on the processing

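With a log2 fold change of at least 1 required as well, the collagen genes called numbered 10 for Nutlin-3a over DMSO in siControl and 2 in siANKRA2 cells, 6 and 8 for siANKRA2 over siControl in DMSO and Nutlin-3a, 4 and 5 for siRFXANK over siControl, 2 and 0 for the response differences of siANKRA2 and siRFXANK, and 8 for the derived siRFXANK response. Beside that 0, 12 passed the normal test on deposited fold changes with no minimum fold, and 1 had an unadjusted p under 0.05 at that fold. At an adjusted p under 0.01 the siRFXANK response difference kept 7 of its 12 calls, and the other 8 counts stayed within 1.5 times. Across single genes and comparisons, 25 calls were lost at 0.01, while 6 were gained with p adjusted over the 18456 genes at or above the minimum mean of 10. Recentring on the median of genes with means of 100 or more gained 3 calls, among them COL1A2 in the siRFXANK response difference, lost those of COL6A3 in siRFXANK over siControl in Nutlin-3a and COL18A1 in the siANKRA2 response difference, and turned the uncalled COL6A3 value of Nutlin-3a over DMSO in siANKRA2 cells from -0.01 to 0.0070. A minimum mean of 100 kept each count within 1.5 times. The siANKRA2 over siControl tables gave the same 22 calls for the siANKRA2 response difference, which is the same difference by construction. Variances from recovered dispersions gave the same 23 calls for the derived siRFXANK response, but were fitted to the same deposited standard errors. Neither is a separate check. Scaling recovered siControl DMSO means to the deposited mean moved 21 of 29 by more than the replicate spread, and the cause was not tested.

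No paired analysis was possible because samples have no separate values in the tables. Leaving out replicates, another count model or normalization, and a filter on counts per library were therefore not run, and whether 1 library decides a value is not known. Low means limit COL9A3, COL15A1, COL4A6 and COL1A2.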
